A study of Mus musculus with 9 samples.

Results

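Regulatory T cells (Tregs) were sorted from β8-expressing tumours under anti-β8 antibody treatment and compared with Tregs from mock-transfected tumours. The question was which genes differed from mock under the antibody. How far the antibody blocked β8 is not measured here, and a difference under the antibody need not be present without it. The comparison uses 6 of the 9 libraries of the series, and it reports the genes whose mean normalized FPKM (sequenced fragments relative to transcript length and library size) was at least 5 in either group. Of 16409 genes in the normalized table, 8729 met that rule, and 8559 of them could be tested. Each library is a pool of sorted CD4+ GFP+ cells, taken from LLC (Lewis lung carcinoma) tumours in 3 to 4 C57BL/6 mice. The anti-β8 group has 3 pools from β8-expressing LLC tumours of mice injected with anti-β8 (clone C6D4, 7 mg/kg, 2 injections a week from day 7). The β8 isotype group, 3 pools from the same kind of tumour in mice given a control antibody, is set beside it, and the Mock group has 3 pools from mock-transfected LLC tumours of untreated mice. Tumours of all groups were taken on day 14. Tumour β8 and antibody injection both separate anti-β8 from Mock and cannot be told apart here. The sources used here do not describe the GFP reporter that defined the sort.

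The integrin αvβ8 binds the latent form of the cytokine TGF-β and releases the active form, and TGF-β promotes the Treg state and switches on its own set of target genes in T cells. LLC is a mouse lung carcinoma line. Interferons act on most cells through STAT transcription factors, which bind the ISRE and GAS elements of interferon-stimulated genes and raise antigen presentation and antiviral genes. Heat shock genes encode protein-folding chaperones and respond to stress through the heat shock element, HSE.

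The sequences below belong to genes named in the results that follow. The gene of Snord83b, a box C/D small nucleolar RNA (snoRNA), lies at chr15:80078498-80078591 on the minus strand of GRCm38, inside an intron of the ribosomal protein gene Rpl3. Snord118 encodes the U8 snoRNA, which takes part in maturation of ribosomal RNA, at chr11:69073427-69073561 on the plus strand. Both were lower in anti-β8, and in their transcripts (GENCODE M21) the box C core TGATGA and the box D CTGA are in capitals. In the mature microRNA of Mir1938 (RefSeq, GRCm38.p6, chr12:40222782-40222803, minus strand, inside an intron of Ifrd1) the seed, bases 2 to 8, is in capitals. The values given for Mir1938 are those of its annotated 100 nt gene, not of this mature form.
Snord83b: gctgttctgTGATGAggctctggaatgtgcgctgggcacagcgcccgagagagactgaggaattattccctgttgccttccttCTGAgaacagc
Snord118: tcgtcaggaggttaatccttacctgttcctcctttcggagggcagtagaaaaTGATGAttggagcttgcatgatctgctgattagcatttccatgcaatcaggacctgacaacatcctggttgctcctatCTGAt
mmu-miR-1938: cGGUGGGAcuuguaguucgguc

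The promoter windows of 3 genes, chosen because they hold a match, show the motifs searched in the gene groups described below, as 250 bases before to 50 bases after the annotated start (RefSeq, GRCm38.p6). Capitals mark an ISRE (GAAA, any 2 bases and GAAA again, with overlapping matches merged) in Gbp2, at chr3:142620413-142620712 on the plus strand, and in Isg15, at chr4:156200769-156201068 on the minus strand. They mark an HSE (GAA, any 2 bases, TTC, any 2 bases and GAA) in Hspe1, at chr1:55087898-55088197 on the plus strand.
Gbp2: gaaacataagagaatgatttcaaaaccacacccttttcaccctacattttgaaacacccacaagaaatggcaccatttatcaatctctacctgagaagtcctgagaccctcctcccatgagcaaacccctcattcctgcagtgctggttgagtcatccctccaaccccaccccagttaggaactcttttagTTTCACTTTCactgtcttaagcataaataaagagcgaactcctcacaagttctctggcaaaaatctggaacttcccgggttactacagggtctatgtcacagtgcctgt
Isg15: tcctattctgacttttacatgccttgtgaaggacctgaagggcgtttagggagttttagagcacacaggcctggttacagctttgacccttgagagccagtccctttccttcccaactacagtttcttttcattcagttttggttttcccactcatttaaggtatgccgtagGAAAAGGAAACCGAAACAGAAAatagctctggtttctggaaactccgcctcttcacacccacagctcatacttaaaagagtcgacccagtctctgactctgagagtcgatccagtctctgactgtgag
Hspe1: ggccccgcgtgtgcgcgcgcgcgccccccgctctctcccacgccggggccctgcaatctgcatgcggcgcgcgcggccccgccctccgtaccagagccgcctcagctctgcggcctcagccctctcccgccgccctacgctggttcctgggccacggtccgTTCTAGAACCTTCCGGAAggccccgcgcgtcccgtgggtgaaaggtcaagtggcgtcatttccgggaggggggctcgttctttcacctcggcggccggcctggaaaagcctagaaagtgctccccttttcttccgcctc
Both strands were searched, and an ISRE can share bases with a GAS (TTCNNNGAA). The ISRE was present in 14 of the 23 type I interferon genes that had a window (60.9%) and in 12 of 20 interferon-γ and MHC class I genes (60.0%), against 3.99% of all 27025 genes with a window. The GAS was present in 8 of those 20 interferon-γ and MHC class I genes and in 9.55% of all genes. The HSE was present in 4 of 14 heat shock genes (28.6%), namely Chordc1, Hspd1, Hspe1 and Hsph1, and in 0.662% of all genes. The windows of Hspa1a and Hspa1b, the heat shock genes that passed the test below, held no exact match to the HSE. Of the genes that passed, 13 had a window, and Apol9b, which fell, was the one of these with an ISRE. Ly6a, Ccr7, Tff1 and Tmem158 were among those without a window, so they were not searched. A match is a run of letters, not a measured binding site. Only exact matches inside the window were counted, so a window without a match does not show that the promoter lacks the element.

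At a threshold of 1 FPKM, anti-β8 pool 2 detected 9772 genes and pool 3 of the same group 9283, whereas each other library detected 11785 to 12177. Of the 8559 genes tested here, 4.79% and 6.01% stood at 0 in the unnormalized table in those pools, against 0.993% in anti-β8 pool 1 and 0.923% to 1.3% in the Mock pools. Anti-β8 pool 1 is therefore set beside the other anti-β8 pools below. Foxp3, the transcription factor that defines Tregs, had 119, 132 and 122 FPKM in anti-β8 and 117, 86.8 and 99.4 in Mock, so the sorted cells of both groups carried it. Read totals are not in the tables, so the depth behind each value is unknown.

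At an adjusted p under 0.05 (limma, Benjamini-Hochberg over 12555 genes, two-sided), 3 genes were higher and 19 were lower in anti-β8 than in Mock among the genes of at least 5 FPKM, which is 0.0351% and 0.222% of them. Over all 12555 genes the counts were 4 (0.0319%) and 19 (0.151%). At an unadjusted p under 0.05 they were 765 (6.09%) and 988 (7.87%), and the anti-β8 pools all lay above the Mock pools in 990 genes (7.89%) and all below in 1054 (8.40%). All 3 higher genes and 11 of the lower ones reached 5 FPKM in both groups, and the other 8 lower ones did so in Mock alone. The count of 22 became 298 without anti-β8 pool 1, 52 without anti-β8 pool 2, and 11, 9 and 9 without Mock pool 1, 2 or 3.

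**Figure D1:**
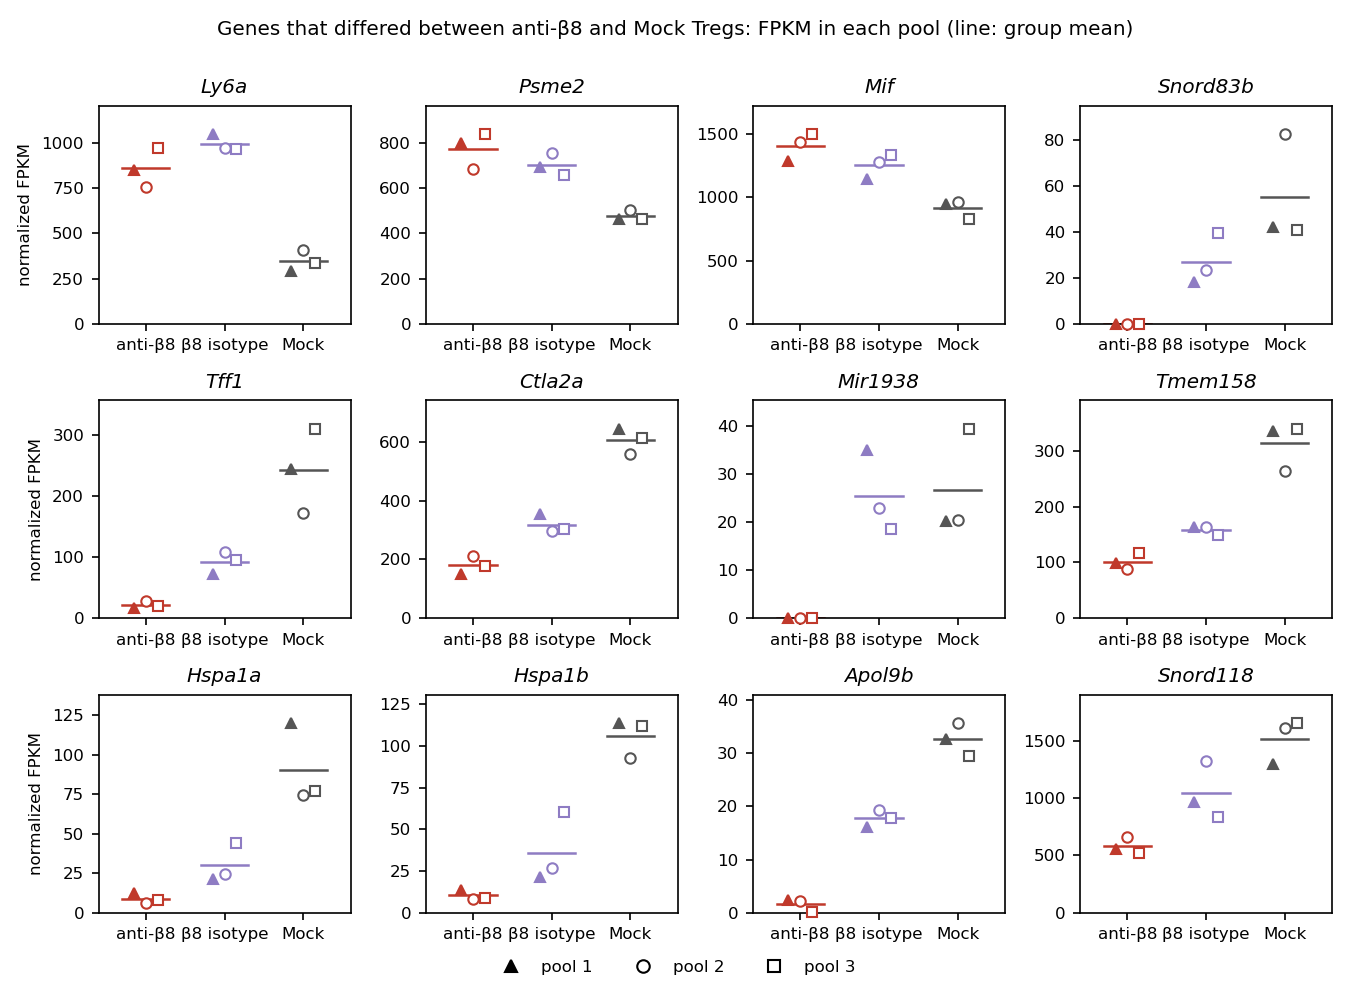
Normalized FPKM of 12 genes that passed the test, in each pool of the anti-β8, β8 isotype and Mock groups (symbols are pools, lines are group means). Ly6a, Psme2 and Mif are higher in every anti-β8 pool than in every Mock pool and the other 9 are lower in every anti-β8 pool than in every Mock pool.

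The 3 genes that rose were an interferon-inducible surface protein, an activator of the proteasome and a cytokine. Ly6a, which encodes Sca-1 (chr15:74994877-74998031), had 854, 759 and 976 FPKM in anti-β8, 1050.1, 976 and 969 in β8 isotype, and 291, 407 and 338 in Mock. All 6 pools from β8 tumours lay above all Mock pools, whichever antibody was given. The log2 difference between anti-β8 and Mock was 1.33 ± 0.14 (SE, 2.50-fold, adjusted p = 0.00229, limma), and between anti-β8 and β8 isotype it was -0.22 ± 0.14 (adjusted p = 0.583). Psme2, which encodes the β subunit of the PA28 activator that binds the immunoproteasome, had 802, 686 and 839 FPKM in anti-β8, 696, 756 and 657 in β8 isotype, and 466, 504 and 464 in Mock. No pool from a β8 tumour overlapped Mock (0.69 ± 0.11, 1.62-fold, adjusted p = 0.0389, limma). Mif, the macrophage migration inhibitory factor, had 1291, 1439 and 1499.6 FPKM in anti-β8, 1144, 1280.1 and 1338 in β8 isotype, and 945, 966 and 830.0 in Mock. It too lay above Mock in every pool from a β8 tumour (0.63 ± 0.10, 1.54-fold, adjusted p = 0.0399, limma). Ly6a kept its call in 21 of 22 alternative analyses, whereas Psme2 lost it in 17 and Mif in 19, with log2 differences of 0.63 to 0.78 and 0.50 to 0.69 over those alternatives. Leaving out any Mock or β8 isotype pool or anti-β8 pool 3 ended the calls of Psme2 and Mif, and leaving out anti-β8 pool 2 ended that of Mif. Reads of Ly6a and Psme2 can be shared with near-identical Ly6 genes and gene copies, so their levels are uncertain to that extent.

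Among the genes that fell, several were intermediate in β8 isotype. Tff1, a secreted trefoil peptide of mucosal epithelium (chr17:31161395-31165277), had 17.4, 28.1 and 20.6 FPKM in anti-β8, 71.7, 109 and 94.5 in β8 isotype, and 244, 172 and 310.2 in Mock. The 3 groups did not overlap, and anti-β8 was 11-fold below Mock (log2 -3.38 ± 0.27, adjusted p = 0.000419) and also below β8 isotype (-2.01 ± 0.27, adjusted p = 0.0408, limma). Tff1 stood on the list of tumour and epithelial markers. Ctla2a, an inhibitor of cathepsin-like proteases (chr13:60934155-60936625), had 150.02, 212 and 178 FPKM in anti-β8, 354, 295 and 304 in β8 isotype, and 645, 559.7 and 612 in Mock. Its groups were also separate (-1.76 ± 0.15 against Mock, 3.37-fold, adjusted p = 0.000541, limma). Tmem158, a membrane protein, had 98.4, 88.2 and 118 FPKM in anti-β8, 164, 164 and 149 in β8 isotype, and 336, 264 and 339.9 in Mock. It was 3.09-fold lower in anti-β8 than in Mock (-1.62 ± 0.16, adjusted p = 0.00204, limma), again without overlap of any groups. Apol9b, of the apolipoprotein L family, had 2.44, 2.29 and 0.0936 FPKM in anti-β8 (the last is 0 in the unnormalized table), 16.1, 19.4 and 17.7 in β8 isotype, and 32.6, 35.6 and 29.5 in Mock. The fall was -3.86 ± 0.45 against Mock (adjusted p = 0.00439) and -3.01 ± 0.45 against β8 isotype (adjusted p = 0.0497, limma), and its call against Mock ended without Mock pool 2. Ctla2a and Apol9b have close relatives, Ctla2b and Apol9a, with which reads can be shared.

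The inducible Hsp70 chaperones fell as well. Heat shock genes form, with the mitochondrially encoded transcripts, the lists kept as signs of sample quality, and the part of sample quality in these values was not tested. Hspa1a had 12.4, 5.92 and 7.98 FPKM in anti-β8, 21.4, 24.4 and 44.0 in β8 isotype, and 119.9, 74.6 and 77.0 in Mock. Hspa1b had 13.8, 8.48 and 8.79 FPKM in anti-β8, 21.2, 26.6 and 60.2 in β8 isotype, and 114, 92.6 and 112 in Mock. These near-identical genes share reads, and both showed separate groups in the order anti-β8, β8 isotype, Mock. The log2 differences between anti-β8 and Mock were -3.25 ± 0.36 for Hspa1a (10.3-fold, adjusted p = 0.00333) and -3.26 ± 0.36 for Hspa1b (10.2-fold, adjusted p = 0.00352, limma). With pool 1 as the lone anti-β8 pool the log2 differences were -2.74 for Hspa1a and -2.85 for Hspa1b, and Hspa1b missed the threshold in that fit, whose spread comes from the other groups alone. Of the 18 heat shock genes, 2 passed adjustment. At an unadjusted p under 0.05, 11 of them were lower and 1 was higher, against 7.87% and 6.09% of all genes tested (limma). The median log2 difference of the heat shock genes was -0.57, against -0.02 over all genes tested, and -0.28 in β8 isotype against Mock. When pool 1 alone stood for anti-β8, the median was -0.60. Hsp90aa1, a cytosolic Hsp90, had 630.2, 502 and 672 FPKM in anti-β8 and 1056, 817 and 1161 in Mock, and Hspa8, the constitutive Hsc70, had 702, 778 and 886 in anti-β8 and 1132, 969 and 1229 in Mock. Neither overlapped Mock, and neither passed (adjusted p = 0.121 and 0.138, limma).

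Snord83b, Mir1938 and Snord118 were among the genes that fell. Snord83b, whose 94 nt sequence is given above, was listed at 0 in all 3 anti-β8 pools of the unnormalized table, and stood at 18.2, 23.4 and 39.5 normalized FPKM in β8 isotype and 42.3, 82.7 and 41.1 in Mock (adjusted p = 0.000295, limma). Its host gene Rpl3 had 776, 860.1 and 864 FPKM in anti-β8 and 876, 795 and 771 in Mock, with a log2 difference of 0.03 ± 0.099 (adjusted p = 0.904, limma). The Rpl3 pools of both groups overlapped. Mir1938, of 100 nt, was listed at 0 in the same pools and stood at 35.1, 23 and 18.6 FPKM in β8 isotype and 20.3, 20.4 and 39.5 in Mock (adjusted p = 0.000556, limma). Its host Ifrd1 had 265, 302 and 135 FPKM in anti-β8, 483, 310.2 and 405 in β8 isotype, and 555, 461 and 483 in Mock. All anti-β8 pools of Ifrd1 lay below all Mock pools, without passing (-1.17 ± 0.27, adjusted p = 0.116, limma). An exon of Gm7008 overlaps Mir1938 on the opposite strand, and the libraries hold no strand to separate their reads. Gm7008 had 2.86, 3.12 and 2.03 FPKM in anti-β8, 6.76, 3.00 and 2.44 in β8 isotype, and 7.45, 5.19 and 8.43 in Mock. Its difference between anti-β8 and Mock did not pass either (-1.12 ± 0.45, adjusted p = 0.317, limma). Snord118 had 555, 665 and 519 FPKM in anti-β8, 969, 1323 and 838 in β8 isotype, and 1297, 1612 and 1655 in Mock, 2.62-fold lower in anti-β8 than in Mock (-1.39 ± 0.17, adjusted p = 0.00619, limma). Its call ended without Mock pool 2 or Mock pool 3. FPKM are divided by transcript length, so in genes this short few reads can give such values. Whether these values come from the small RNAs themselves or from longer transcripts that cover them was not tested.

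A lymph node homing receptor, a myelin protein and an epithelial transcription factor were lower too. Ccr7, the chemokine receptor that guides T cells to lymph nodes, had 404, 278 and 343 FPKM in anti-β8, 785, 592 and 689.8 in β8 isotype, and 647, 762 and 730.3 in Mock. The isotype pools spread over the Mock range, while anti-β8 was 2.09-fold below Mock (-1.07 ± 0.15, adjusted p = 0.0252, limma). Against β8 isotype the difference of -1.02 ± 0.15 missed the threshold (adjusted p = 0.0543, limma). Ncmap, a myelin-associated membrane protein, had 31.1, 15.6 and 11.1 FPKM in anti-β8, 91.9, 108 and 77.1 in β8 isotype, and 86.6, 73.0 and 81.7 in Mock (-2.13 ± 0.32, 4.18-fold, adjusted p = 0.0319, limma). It was also lower in anti-β8 than in β8 isotype (-2.31 ± 0.32, adjusted p = 0.0408, limma). Leaving out any of the 3 Mock pools ended the calls of Ccr7 and Ncmap, and leaving out any β8 isotype pool ended that of Ncmap. Ovol2, an epithelial zinc finger factor, was listed at 0 for every anti-β8 pool before normalization, at 2.13, 0.642 and 1.47 FPKM in β8 isotype and at 4.31, 6.10 and 7.30 in Mock (adjusted p = 0.0350, limma). Its call ended without any Mock or β8 isotype pool or without anti-β8 pool 3. Chosen after their values were seen, the other genes that fell were Gm14275, Gm25313, CAAA01147332.1, AU020206, Ppp1r12b, Calca and Stab1. The higher gene below 5 FPKM was the mitochondrially encoded mt-Atp8, at 4.11, 3.21 and 4.36 FPKM in anti-β8 and listed at 0 in all other pools.

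Anti-β8 pool 1 lay outside the Mock range, on the same side as pools 2 and 3, for all 22 genes that passed. The median log2 difference of the 3 higher genes from the Mock mean was 0.75 in pool 1 and 0.69 over pools 2 and 3. That of the 19 lower genes was -2.68 and -2.66. Of these 19 genes, 8 reached 5 FPKM in Mock alone. In the unnormalized table pool 1 stood at 0 in 5 of the 19, and pool 2 or pool 3 in 8. Where an anti-β8 pool stands at 0, its difference is set by the Mock level, so these genes cannot show how closely the pools agree. As a comparison, pool 1 lay above all Mock pools in 2443 genes of at least 5 FPKM (28.5%) and below them in 2232 (26.1%). The 22 genes were partly called because of pool 1, so their placing is a description. When pool 1 alone represents anti-β8, the spread comes from the Mock and β8 isotype pools alone, and pool 1 is assumed to vary like them. The log2 differences in that fit included -5.74 for Snord83b, -3.68 for Tff1, -2.004 for Ctla2a and -4.72 for Mir1938. Those of Tmem158, Ly6a, Hspa1a and Apol9b were -1.65, 1.32, -2.74 and -3.28. Outside the 22 genes, immunoglobulin segments were among the largest rises, such as Igkv3-2 (7.26) and Igkv9-124 (7.11). These segments had 152 and 137 FPKM in pool 1 and 0 in every Mock pool. Without pool 1 their differences were 1.89 and 0.10. Among the falls outside the 22 were Snora30 (-6.47) and Gm22003 (-5.72).

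**Figure D2:**
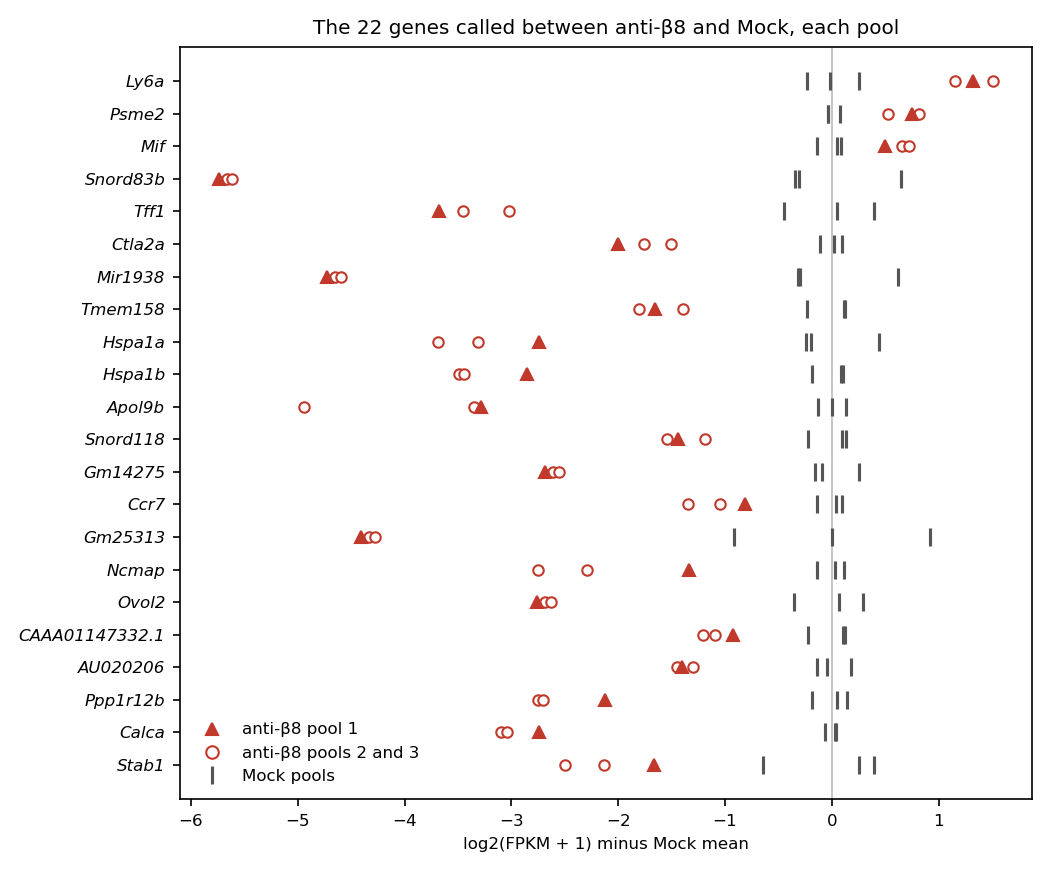
Log2(FPKM + 1) minus the Mock mean for the 22 genes that passed, with anti-β8 pool 1 as a filled triangle, anti-β8 pools 2 and 3 as open circles and the Mock pools as bars. Pool 1 lies outside the Mock pools, on the same side as pools 2 and 3, in each row.

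The genes that passed on pools 2 and 3 by themselves were also set against pool 1. Pool 1 was placed against the same Mock pools that gave these calls, so its placing is a description and not an independent check. Without pool 1, 81 genes of at least 5 FPKM were higher (0.946%) and 217 were lower (2.54%). Of the 81 higher genes, pool 1 lay above all Mock pools in 52 (64.2%), within the Mock range in 27 and below it in 2. Its median log2 difference was 0.43, against 1.84 for pools 2 and 3. Of the 217 lower genes, pool 1 lay below all Mock pools in 137 (63.1%), within their range in 61 and above it in 19, with a median of -0.41 against -2.13. In 71 of these 217 genes pool 2 or pool 3 stood at 0 in the unnormalized table, while pool 1 did so in 6. All 22 genes called with every library were among the 298 called without pool 1.

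The mean of both antibody groups was also set against Mock, in a contrast that a gene can pass through 1 of the groups alone. There 4 genes of at least 5 FPKM were higher (0.0467%) and 9 were lower (0.105%). Ly6a (1.43 ± 0.12, adjusted p = 0.00146) and Psme2 (0.62 ± 0.10, adjusted p = 0.0440) were joined by Ltf and Gzmb (limma). Ltf, the iron-binding protein lactoferrin of neutrophil granules, had 33.7, 55.0 and 81.8 FPKM in anti-β8, 89.3, 50.5 and 53.4 in β8 isotype, and 14.9, 11.1 and 11.8 in Mock. Every pool from a β8 tumour lay above Mock (2.12 ± 0.30, adjusted p = 0.0270, limma), and against Mock alone anti-β8 missed the threshold (2.01 ± 0.34, adjusted p = 0.0537). Other myeloid markers differed from each other. The neutrophil genes S100a8 and S100a9 were each at 0 in 5 of the 6 anti-β8 and Mock libraries, and Stab1 was lower in anti-β8. C1qc had 14.5, 5.68 and 11.9 FPKM in anti-β8 and 2.01, 1.33 and 2.91 in Mock. C1qa had 20.0, 9.12 and 12.4 in anti-β8 and 6.87, 0.932 and 4.77 in Mock. Both lay above Mock in every β8 pool, without passing for anti-β8 (adjusted p = 0.196 and 0.248, limma). Gzmb, the cytotoxic protease granzyme B that activated Tregs also make, had 789.5, 894 and 954 FPKM in anti-β8, 1386, 954 and 776 in β8 isotype, and 442, 480.1 and 494 in Mock. No β8 pool overlapped Mock (0.99 ± 0.15, adjusted p = 0.0479 for both groups, and 0.89 ± 0.18, adjusted p = 0.0896 for anti-β8, limma). The 9 lower genes were Tff1, Ctla2a, Snord83b, Tmem158, Hspa1a, Hspa1b, Mir1938, Snord118 and Gm14275. Mir1938 passed there through the anti-β8 pools, since β8 isotype against Mock was -0.04. In β8 isotype against Mock by itself, Ly6a was the one of the 13 genes that passed (adjusted p = 0.00301, limma). The others had an adjusted p of 0.134 or more there, so a difference under either antibody was not shown for each of them. The count of 13 became 24 without anti-β8 pool 1, 44 without anti-β8 pool 2, 4, 5 and 4 without Mock pool 1, 2 or 3, and 8 without β8 isotype pool 1 or without pool 2.

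Next in order came genes of similar direction that did not pass. Ms4a4b, a membrane protein of T cells, had 228, 129 and 252 FPKM in anti-β8, 222, 211 and 199.5 in β8 isotype, and 83.8, 94.3 and 76.0 in Mock (1.2 ± 0.23 for anti-β8 against Mock, adjusted p = 0.0838, limma). The cytoskeletal genes Actb (0.50 ± 0.086, adjusted p = 0.0537), Actg1 (0.63 ± 0.11, adjusted p = 0.0729) and Tpm4 (0.88 ± 0.17, adjusted p = 0.0838, limma) also lay above Mock in every β8 pool. On the lower side the pro-apoptotic gene Pmaip1 had 54.4, 55.0 and 30.7 FPKM in anti-β8, 78.3, 60.2 and 74.7 in β8 isotype, and 124, 118 and 124 in Mock (-1.41 ± 0.24, adjusted p = 0.0537, limma). The keratin gene Krt83 (-2.09 ± 0.36, adjusted p = 0.0538), the choline kinase Chkb (-0.99 ± 0.17, adjusted p = 0.0613), the snoRNA host Snhg12 (-1.57 ± 0.28, adjusted p = 0.0617) and the anti-apoptotic Bcl2a1b (-0.59 ± 0.11, adjusted p = 0.0718, limma) lay below Mock in every β8 pool. Csf2, the cytokine GM-CSF, was listed at 0 in anti-β8 pools 1 and 2 of the unnormalized table and at 1.52 normalized FPKM in pool 3, against 11, 13.5 and 9.22 in Mock.

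Interferon-stimulated genes lay mostly above Mock in anti-β8, and their medians were above Mock in β8 isotype too. Of 33 type I interferon genes tested, 13 were higher in anti-β8 than in Mock and 1 was lower at an unadjusted p under 0.05, and 1 (Ly6a) passed adjustment. The median log2 difference was 0.55 for anti-β8 and 0.87 for β8 isotype, each against the same Mock pools. Of 27 interferon-γ and MHC class I genes 15 were higher, 2 were lower and none passed, with medians of 0.63 and 0.74 (limma). Over all genes tested, 6.09% were higher and 7.87% lower at an unadjusted p under 0.05 (limma). The anti-β8 pools all lay above Mock in 10 genes of the type I list and 15 of the interferon-γ list, against 7.89% of all genes tested. In pool 1 alone, 26 of 33 and 20 of 27 lay above every Mock pool, against 28.5% of the genes of at least 5 FPKM. The sets differ, since 26 of the 33 and 25 of the 27 reached that mean. The list medians in pool 1 alone were 0.77 and 0.58.

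Single genes show how these groups were placed. Gbp2, a guanylate-binding GTPase whose promoter is given above, had 51.3, 42.5 and 79.1 FPKM in anti-β8, 56.7, 39.1 and 39.3 in β8 isotype, and 21.2, 21.8 and 15.5 in Mock (1.48 ± 0.29, adjusted p = 0.0840, limma). Igtp, an immunity-related GTPase, had 229.6, 241 and 318 FPKM in anti-β8, 294, 224 and 227 in β8 isotype, and 126, 170.5 and 121 in Mock (0.91 ± 0.19, adjusted p = 0.0950, limma). Irgm1, of the same family, had 62.6, 62.3 and 132 FPKM in anti-β8, 78.5, 63.6 and 63.9 in β8 isotype, and 32.5, 37.6 and 32.8 in Mock. In these 3 genes all β8 pools lay above all Mock pools. Psmb8, an immunoproteasome subunit, had 839, 628 and 966 FPKM in anti-β8, 870.0, 821 and 795 in β8 isotype, and 480.1, 564 and 511 in Mock (0.63 ± 0.15, adjusted p = 0.127, limma). Zbp1, a sensor of Z-form nucleic acids, had 211, 169.5 and 279 FPKM in anti-β8, 221, 208 and 142 in β8 isotype, and 96.5, 121 and 73.4 in Mock (1.17 ± 0.25, adjusted p = 0.0995, limma). Ifit1, which binds viral RNA, had 40.9, 41.1 and 44.9 FPKM in anti-β8, 31.4, 27.1 and 35.2 in β8 isotype, and 16.6, 20.0 and 7.84 in Mock. Parp14, an ADP-ribosyltransferase, had 38.9, 77.0 and 69.5 FPKM in anti-β8, 24.9, 24.2 and 32.9 in β8 isotype, and 10.8, 14.0 and 24.8 in Mock. In Ifit1 all β8 pools lay above Mock, while in Parp14 a β8 isotype pool fell within the Mock range. Socs1, a feedback inhibitor of cytokine signalling, had 198, 149 and 138 FPKM in anti-β8, 341, 236 and 259 in β8 isotype, and 215, 254 and 197 in Mock. Its estimate was lower in anti-β8 (-0.47 ± 0.19, adjusted p = 0.321, limma), with pool 1 within the Mock range.

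**Figure D3:**
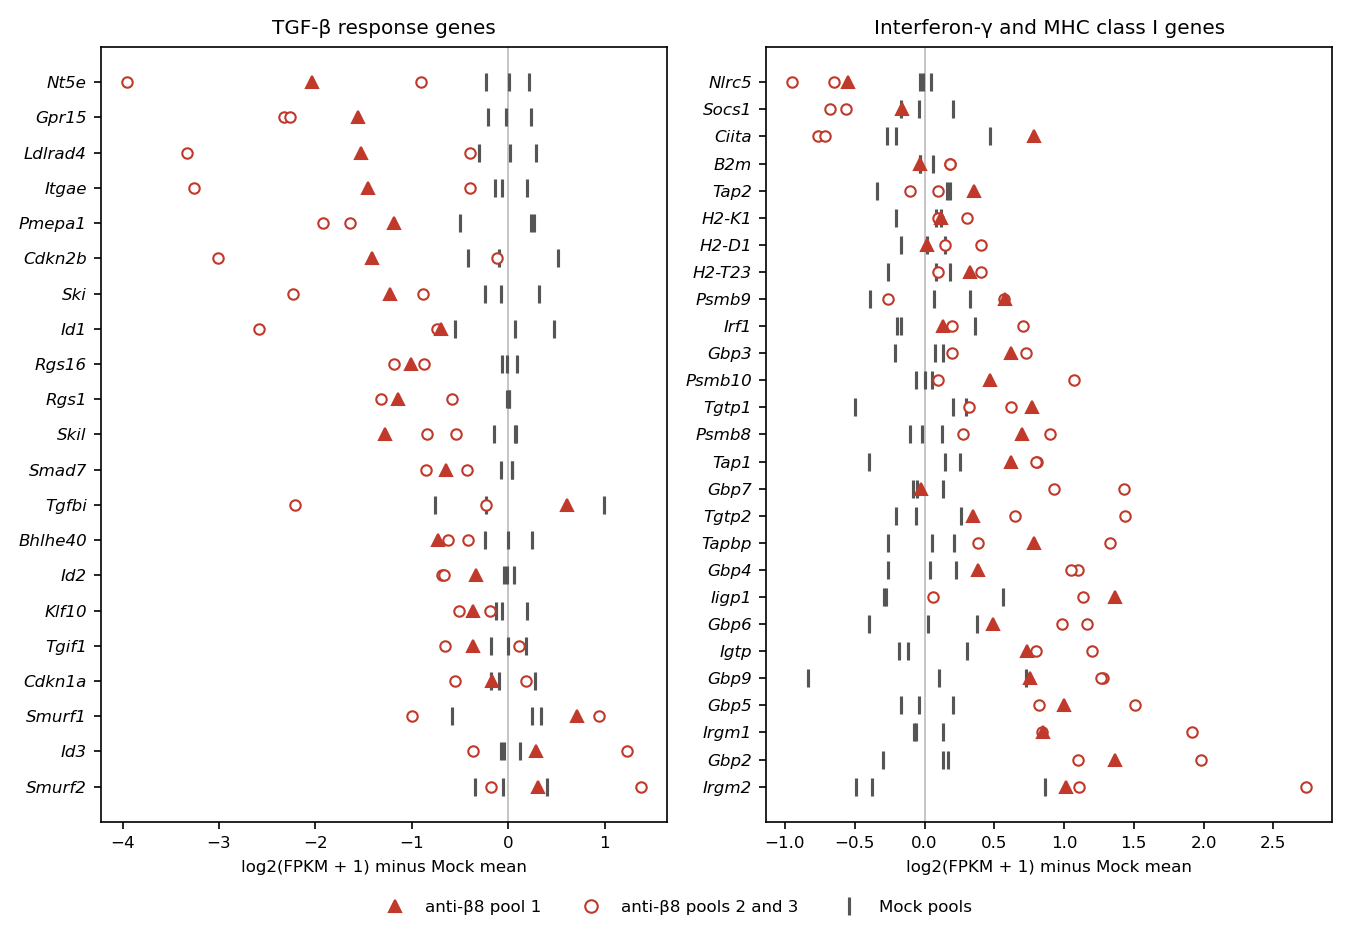
Log2(FPKM + 1) minus the Mock mean for the 21 TGF-β response genes and the 27 interferon-γ and MHC class I genes tested, with anti-β8 pool 1 as a filled triangle, anti-β8 pools 2 and 3 as open circles and the Mock pools as bars. TGF-β response genes lie mostly left of the Mock pools (list median -0.89) and interferon-γ genes mostly right (0.63), with pool 1 on the same side.

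Most TGF-β response genes had lower estimates in anti-β8 than in Mock (18 of 21, with 3 higher). Of 23 listed genes 21 were tested, and 0 passed adjustment (limma). At an unadjusted p under 0.05, 14 were lower and 0 higher, against 7.87% and 6.09% of all genes tested. The median log2 difference was -0.89 for anti-β8 and -0.14 for β8 isotype, against -0.02 and 0.01 over all genes tested. In 14 genes all anti-β8 pools lay below all Mock pools, against 8.40% of all genes tested. Pool 1 by itself did so in 16 of the 21, against 26.1% of the genes of at least 5 FPKM, a mean that 19 of the 21 reached. Pmepa1, an inhibitor of TGF-β signalling that TGF-β induces, had 31.7, 23 and 18.6 FPKM in anti-β8, 97.3, 57.0 and 65.1 in β8 isotype, and 86.6, 51.7 and 88.9 in Mock (-1.58 ± 0.30, adjusted p = 0.0838, limma). Rgs16, a regulator of G protein signalling, had 138, 122 and 151 FPKM in anti-β8, 311, 166 and 222 in β8 isotype, and 295, 275 and 265 in Mock (-1.02 ± 0.21, adjusted p = 0.0904, limma). Id2, an inhibitor of DNA binding, had 1109.5, 867 and 880.3 FPKM in anti-β8, 1629, 1312 and 1467 in β8 isotype, and 1351, 1386 and 1453 in Mock (-0.56 ± 0.12, adjusted p = 0.0929, limma). The anti-β8 pools of these 3 genes lay below every Mock pool, and β8 isotype pools overlapped Mock. Gpr15, a homing receptor for the colon, had 0.786 FPKM in anti-β8 pool 1 and stood at 0 in pools 2 and 3 of the unnormalized table, against 3.54, 4.17 and 5.22 in Mock. Itgae, the αE integrin CD103, had 18, 38.5 and 4.44 FPKM in anti-β8, 65.9, 44.1 and 50.9 in β8 isotype, and 58.9, 49.0 and 46.4 in Mock (-1.71 ± 0.56, adjusted p = 0.249, limma). Nt5e, the ectoenzyme CD73, had 6.04, 0.866 and 14.5 FPKM in anti-β8, 30.4, 16.2 and 23.5 in β8 isotype, and 32.7, 28.1 and 23.6 in Mock. For both genes the anti-β8 pools differed widely from each other, with pool 1 between the other two.

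Of 17 tested genes that release or sense TGF-β, 1 was higher and 1 was lower at an unadjusted p under 0.05, and the median was -0.20 (limma). These counts are near the shares over all genes (6.09% and 7.87%). Without anti-β8 pool 1 the median was -0.34, without anti-β8 pool 3 it was -0.04, and without Mock pool 1 it was -0.05. The lower one was Itgav, the αv partner of β8, with 212, 223 and 141 FPKM in anti-β8, 362, 284 and 328 in β8 isotype, and 378, 293 and 343 in Mock (-0.83 ± 0.19, adjusted p = 0.114). All anti-β8 pools of Itgav lay below all Mock pools. Itgb8 in the Tregs themselves had 6.89, 8.93 and 3.80 FPKM in anti-β8 and 12.1, 7.10 and 10.5 in Mock (-0.57 ± 0.41, adjusted p = 0.560, limma), with overlapping pools. Lrrc32, the latent TGF-β carrier GARP, had 57.8, 60.3 and 18.2 FPKM in anti-β8 and 57.5, 61.2 and 50.3 in Mock, and Tgfb1 had 112, 90.7 and 73.5 in anti-β8 and 129, 87.3 and 101 in Mock. In both genes pool 1 lay within the Mock range, and their log2 differences were -0.48 ± 0.39 and -0.20 ± 0.24. Without anti-β8 pool 3, that of Lrrc32 became 0.07 and that of Tgfb1 -0.05. Without anti-β8 pool 1 they were -0.74 and -0.35, without anti-β8 pool 2 that of Lrrc32 was -0.77, and without Mock pool 1 or 2 that of Tgfb1 was -0.05 or -0.33.

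Of 21 Treg identity genes tested, 2 were higher and 1 was lower at an unadjusted p under 0.05, a share near that of all genes (6.09% and 7.87%), with a median of 0.18 (limma). Tnfrsf4, the costimulatory receptor OX40, had 1246, 1255 and 1543 FPKM in anti-β8, 1398, 1439 and 1499.6 in β8 isotype, and 864, 1104 and 912 in Mock. All β8 pools lay above Mock (0.49 ± 0.12, adjusted p = 0.131, limma). Irf4, a factor of effector Tregs, had 14.3, 23.4 and 7.28 FPKM in anti-β8, 18.6, 11.4 and 13.2 in β8 isotype, and 30.7, 24.7 and 25.8 in Mock, with all β8 pools below Mock (-0.94 ± 0.39, adjusted p = 0.329, limma). The fixed genes Foxp3 (0.31 ± 0.20), Il2ra (-0.07 ± 0.20) and Ctla4 (0.18 ± 0.17) had adjusted p of 0.512, 0.899 and 0.653. Ikzf2, which encodes Helios, had 78.0, 29.5 and 18.8 FPKM in anti-β8 and 47.5, 56.4 and 60.8 in Mock. Pool 1 of Ikzf2 lay above Mock and pools 2 and 3 below it, and the log2 difference was -0.62 ± 0.40 with all pools and 0.51 with pool 1 alone. Il10, the suppressive cytokine, had 29.7, 5.73 and 15.4 FPKM in anti-β8, 79.3, 54.3 and 43.7 in β8 isotype, and 33.7, 59.1 and 33.7 in Mock (-1.47 ± 0.49, adjusted p = 0.254, limma). It lay below Mock in all anti-β8 pools, least in pool 1, and the difference was -0.39 in the smallest of the alternatives.

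Members of the homing, checkpoint and NF-κB lists lay on both sides of Mock. Of 24 chemokine receptor and homing genes, 7 were lower and 1 was higher at an unadjusted p under 0.05, and Ccr7 passed (limma). Their median of -0.19 became 0.06 without anti-β8 pool 2 and 0.03 with pool 1 alone, so the sign of the group's median depended on that pool. Cxcr4, the receptor for CXCL12, had 42.8, 14.1 and 15.6 FPKM in anti-β8, 55.9, 55.4 and 47.7 in β8 isotype, and 70.1, 74.2 and 77.4 in Mock (-1.75 ± 0.35, adjusted p = 0.0904, limma). Ccr6 had 13.4, 6.53 and 14.4 FPKM in anti-β8, 16.3, 33.7 and 24.7 in β8 isotype, and 30.0, 30.7 and 44.6 in Mock. Of 16 checkpoint and CD28 family genes 2 were lower and 0 higher at an unadjusted p under 0.05, and of 22 NF-κB genes 3 were lower and 1 was higher. Over all genes tested, 7.87% were lower and 6.09% higher at that threshold (limma). Pdcd1, the inhibitory receptor PD-1, had 40.9, 65.2 and 38.6 FPKM in anti-β8, 88.4, 73.4 and 106 in β8 isotype, and 93.3, 100.1 and 111 in Mock (-1.09 ± 0.24, adjusted p = 0.10, limma). In these 3 genes the anti-β8 pools lay below every Mock pool. Nfkbia, the NF-κB inhibitor, had 1398, 1386 and 1183 FPKM in anti-β8, 1958, 2151 and 1989 in β8 isotype, and 1818, 1718 and 1764 in Mock. Its anti-β8 pools lay below Mock and its isotype pools above (-0.42 ± 0.087 against Mock, adjusted p = 0.0929, limma). Bcl3, an atypical IκB protein, had 117, 170.5 and 114 FPKM in anti-β8, 125, 86.3 and 109 in β8 isotype, and 89.5, 84.3 and 89.7 in Mock. All its anti-β8 pools lay above all Mock pools (0.58 ± 0.20, adjusted p = 0.270, limma).

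The medians of the glycolysis and DNA replication lists were above Mock, and no member passed adjustment. Over all genes tested, 6.09% were higher and 7.87% lower at an unadjusted p under 0.05 (limma). Of 22 glycolysis genes 9 were higher and 0 lower at an unadjusted p under 0.05, with a median of 0.40 for anti-β8, 0.30 in pool 1 alone and 0.26 for β8 isotype (limma). Gapdh had 2188, 3094 and 2969.8 FPKM in anti-β8, 1896, 1989 and 2024 in β8 isotype, and 1791, 1731 and 1629 in Mock (0.66 ± 0.12, adjusted p = 0.0617, limma), with pool 1 nearest to Mock. Eno1 had 1014, 899 and 1161 FPKM in anti-β8, 1002, 966 and 1104 in β8 isotype, and 736, 679 and 727 in Mock, all β8 pools being above Mock. Of 24 DNA replication genes 6 were higher and 0 lower, with a median of 0.69 for anti-β8 and 0.81 for β8 isotype. Mcm3, of the replicative helicase, had 73.9, 57.4 and 80.9 FPKM in anti-β8, 50.3, 64.3 and 76.8 in β8 isotype, and 27.3, 33.1 and 41.8 in Mock (1.04 ± 0.25, adjusted p = 0.131, limma). Ribosomal protein genes had 15 of 75 lower and 0 higher, with a median of -0.10 for anti-β8 and -0.25 for β8 isotype. The mitochondrially encoded transcripts, a measure of RNA quality, had 9 of 14 higher, with a median of 0.67 that became 0.11 in pool 1 alone.

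**Figure D4:**
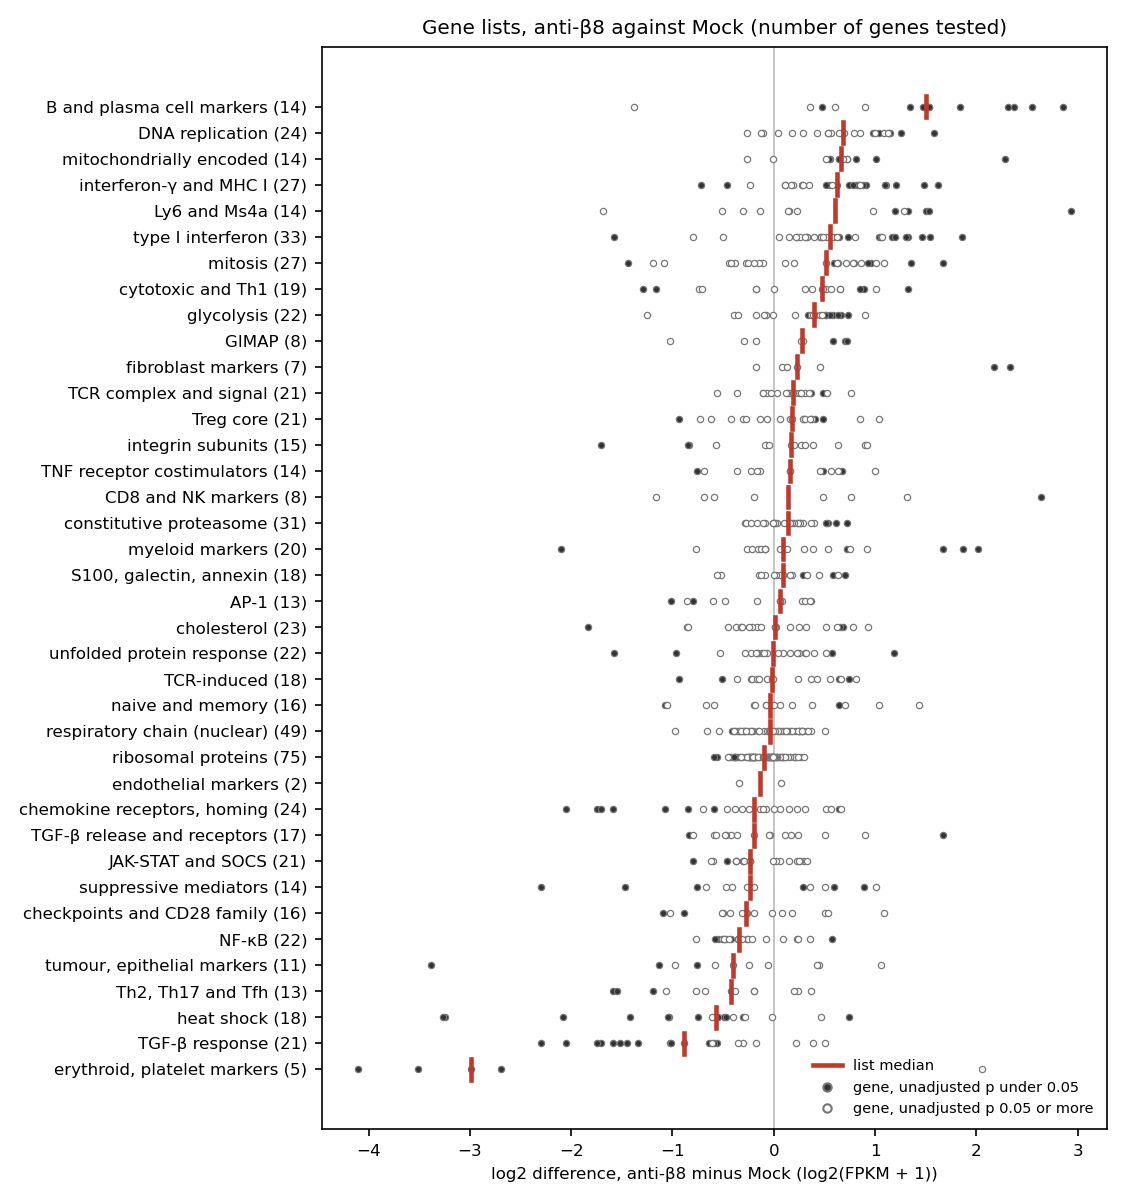
Log2 difference between anti-β8 and Mock for the tested genes of each gene list (points, filled at an unadjusted p under 0.05) with the list median (bar) and the number tested in brackets. The medians range from -2.99 for erythroid and platelet markers to 1.5 for B and plasma cell markers, with TGF-β response genes at -0.89.

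Several lists of markers for other cell types also differed between the groups, and their part in the results was not tested. Fewer cells of a type and less RNA per cell cannot be told apart in pooled cells. Of 14 B and plasma cell markers 10 were higher in anti-β8 than in Mock at an unadjusted p under 0.05 (limma), with a median of 1.5. Their summed level was 1110 to 1790 FPKM in anti-β8, 707 to 1610 in β8 isotype and 655 to 1100 in Mock, highest in anti-β8 pool 1. Cd79a, part of the B cell receptor, had 93.2, 70.6 and 66.1 FPKM in anti-β8, 28.3, 7.53 and 59.1 in β8 isotype, and 6.66, 29.6 and 14.8 in Mock, and the plasma cell genes Jchain and Mzb1 were at 0 in 3 of the 6 libraries. Of 5 erythroid and platelet markers 4 were lower, with a sum of 0.468 to 123 FPKM in anti-β8 and 61.4 to 327 in Mock, and the platelet gene Ppbp was at 0 in all 6. Of 11 tumour and epithelial markers 3 were lower, Tff1 among them. Their sum was 100 to 239 FPKM in anti-β8, 326 to 396 in β8 isotype and 379 to 481 in Mock. Without Tff1 the anti-β8 and Mock sums overlapped, at 152, 211 and 79.6 FPKM in anti-β8 and 167, 207 and 171 in Mock. The β8 isotype sums without Tff1 were 272, 287 and 232 FPKM. Of 7 fibroblast markers 2 were higher, such as Dcn with 9.26, 21.2 and 30.9 FPKM in anti-β8, 22.9, 76.7 and 66.3 in β8 isotype, and 1.03, 3.06 and 5.82 in Mock. Of 20 myeloid markers 4 were higher, Ltf, C1qa and C1qc among them, and 1, Stab1, was lower. Their sums were 2090 to 2450 FPKM in anti-β8 and 1430 to 2620 in Mock. The CD8 and natural killer list had 1 of 8 higher. Over all genes tested, 6.09% were higher and 7.87% lower at the same unadjusted threshold.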

How the data were processed

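RNA of 9 Treg pools was made into libraries with SMART-Seq v4 and Nextera XT, per the labels' protocols, without molecular identifiers or strand. The authors deposited FPKM before and after normalization between libraries, and the normalized values are quantile normalized as far as the values show. GRCm38, RSEM 1.3.1, Cufflinks, STAR 2.6.1a, Trim Galore 0.5.0 and Picard are named per the submitters' processing notes, without an annotation release. Because FPKM are not counts, log2(normalized FPKM + 1) was fitted with limma 3.58.1 in R 4.3.3 (3 group means, all 9 libraries, trend and robust variance) on 12555 genes of at least 1 FPKM in at least 3 libraries, after the code was tested on simulated data. Log2 differences are on that scale and understate the change of low genes, and folds are ratios of group mean normalized FPKM. In fits with 1 anti-β8 pool, the spread comes from the Mock and β8 isotype pools alone. Reported genes had a mean of at least 5 FPKM in anti-β8 or Mock, and adjusted p-values (Benjamini-Hochberg) under 0.05 passed. An exact permutation test of 3 against 3 pools cannot go below p = 0.1. Nothing in the labels gives batches, and p-values measure only the spread between pools. Named genes were, apart from predicted genes, pseudogenes and receptor segments, those that passed with the smallest p (up to 12 in each direction), the 8 next ones without overlap of the pools, the 8 of smallest p for both antibody groups against Mock, 10 fixed Treg and TGF-β genes, and up to 4 of each list described. The members and lists were chosen with earlier results of these data known. Near-identical genes share reads and are uncertain. 1 row with shifted cells was left out. Alternatives covered the table, pseudocount, filters, variance model, replicate block and left-out pools.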

Additional observations from a re-analysis of the deposited data

How the results depend on the processing

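The 22 genes that differed between anti-β8 and Mock (3 higher, 19 lower) became 14 (1 higher) with no filter on low values, 14 (12 lower) with array weights and 11 (0 higher, 11 lower) without trend and robust settings. The higher count became 1 in the unnormalized table, with and without median centring, and 12 genes (1 higher, 11 lower) passed there with only the compared libraries. Without anti-β8 pools 2 and 3 the higher count was 9, and 7 in the unnormalized table. Leaving out 1 pool at a time gave 9 to 298 genes (1 to 81 higher, 7 to 217 lower). For both antibody groups against Mock, the 13 genes (4 higher, 9 lower) became 49 (19 higher, 30 lower) with array weights, 2 (0 higher, 2 lower) without trend and robust settings and 49 (22 higher, 27 lower) without anti-β8 pools 2 and 3. The higher count there was 2 in the unnormalized table, with median centring, with a pseudocount of 0.1, with no filter and with the replicate block, and leaving out 1 pool gave 4 to 44 genes (1 to 16 higher, 3 to 28 lower). With the replicate block, 15 genes passed between anti-β8 and Mock and 10 for both antibody groups. Same-numbered pools shared only a number (correlations of -0.029, -0.012 and 0.022). No called result of a named gene reversed, while over all pairs of a named gene and an alternative 188 lost a call and 43 gained one. The alternatives that join the unnormalized table with another choice were chosen after seeing the data. The median of all genes was -0.146 in the unnormalized table, against -0.025 in the normalized one. The causes of these changes were not tested. Depth is not in the tables, so precision rests on 3 pools a group.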
